A study of Sus scrofa with 9 samples.

Results

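Transcription factors of the HOX, SOX, FOX, PAX, TBX, GATA, IRX, LHX, KLF, TFAP2, MEIS, PITX, DLX, NKX, HNF and sine oculis (SIX2, SIX4 and SIX6) families were followed across the glands, the lining and the cultured spheroids of the pig esophagus. Genes were taken by the start of their symbol, with SOX9, FOXA1, FOXA2, FOXA3, GATA6 and HNF4A left out, and 117 of the 12217 genes tested met this rule. They comprised 27 HOX, 23 FOX, 13 SOX, 8 TBX, 8 NKX, 7 KLF, 6 LHX, 5 PAX, 4 DLX, and 3 each of sine oculis, GATA, IRX, TFAP2 and MEIS genes, with 1 PITX gene and 0 HNF genes. Each gene was represented by a probe set matched to 1 symbol, the brightest over the 9 arrays where there were several. KLF4, PITX1, FOXC1 and FOXF1 are not analysed here. Of 191 protein-coding gene symbols in the pig reference assembly that met the rule, 74 were not measured, so the families are incomplete.

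These proteins bind DNA and set which genes a cell of a given position or lineage can use. HOX genes lie in clusters and mark position along the body axis, with MEIS and PBX proteins as DNA-binding partners. SOX2 and PAX9 act in the foregut and the esophageal lining of the mouse, KLF5 and the AP-2 factors TFAP2A and TFAP2C in stratified epithelia, and several TBX, MEIS and FOX factors in mesenchyme, the connective and muscle tissue under an epithelium.

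RNA was measured on 9 Affymetrix arrays, 1 sample per array and 3 arrays per group. Spheroids were grown in vitro from esophageal submucosal glands (ESMG), which release mucus and bicarbonate-rich fluid onto the lining, and carry the labels pig 1, 2 and 3. They grew in Matrigel of reduced growth factor content under Advanced DMEM/F12 with B27, N2, 10 mM HEPES and 50 ng/ml recombinant human EGF, a growth factor for epithelial cells. ESMG tissue and the squamous tissue over it came from the esophagus of control pigs 37, 39 and 40. The labels do not state how pigs 1, 2 and 3 relate to these animals, nor the breed or age of any of them. RNA of spheroids and of tissues was isolated with different kits, so kit and culture cannot be told apart.

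Values are log2 RMA levels, background-corrected and normalized probe set summaries on which a difference of 1 is a 2-fold difference. Array medians lay between 6.84 and 7.04, and the lower quartile of all probe sets between 5.36 and 5.65. Levels near that quartile are close to the floor, where RMA compresses differences, and no detection call was used. Of the 117 genes, 90 lay above the lower quartile on all 9 arrays and 6 below it on all 9, and 52 (44.4%) were among the dimmest 33.3% of genes by mean level. Of the 8 measured gland markers, 8 were higher in ESMG than in squamous tissue. The 4 measured squamous markers (KRT5, KRT15, CRNN and A2ML1) had a mean level of 9.30 to 9.63 in spheroids, 11.61 to 12.28 in ESMG and 12.39 to 12.59 in squamous tissue, so these markers were bright in ESMG samples too. The mean level of the 8 gland markers was 8.37 to 8.55 in spheroids, 10.88 to 11.94 in ESMG and 7.14 to 8.26 in squamous tissue, and 5 of the 8 were lower in spheroids than in ESMG. Against squamous tissue 4 of the 8 were higher in spheroids and 2 lower. A gene was called at a fold of at least 2 and a Benjamini-Hochberg adjusted p under 0.05 in limma, fitted to all 12217 genes on all arrays.

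Few of these factors separated the glands from the lining, whereas more separated the spheroids from either tissue. In ESMG versus squamous tissue 4 of 117 were called (3.42%, against 3.06% of all genes), 2 higher and 2 lower (background 2.65% higher and 0.409% lower). In spheroids versus ESMG 19 were called (16.2%, against 16.9%), 10 higher and 9 lower (background 7.99% and 8.91%). In spheroids versus squamous tissue 18 were called (15.4%, against 16.7%), 8 higher and 10 lower (background 8.61% and 8.05%). All 3 shares were close to those of all genes, so the count of calls does not set these families apart. The arrays of the 2 groups did not overlap for 22 factors in ESMG versus squamous tissue (18.8%, against 21.6% of all genes). They did not overlap for 58 in spheroids versus ESMG (49.6%, against 51.3%) and for 46 in spheroids versus squamous tissue (39.3%, against 50.4%). The median log2 difference was -0.15 in ESMG versus squamous tissue (-0.06 over all genes), 0.25 in spheroids versus ESMG (0.09) and 0.08 in spheroids versus squamous tissue (0.03). In all, 23 of the genes were called in at least 1 comparison and 94 in none. The comparisons share arrays, so a gene high or low in spheroids enters both spheroid comparisons.

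**Figure D1:**
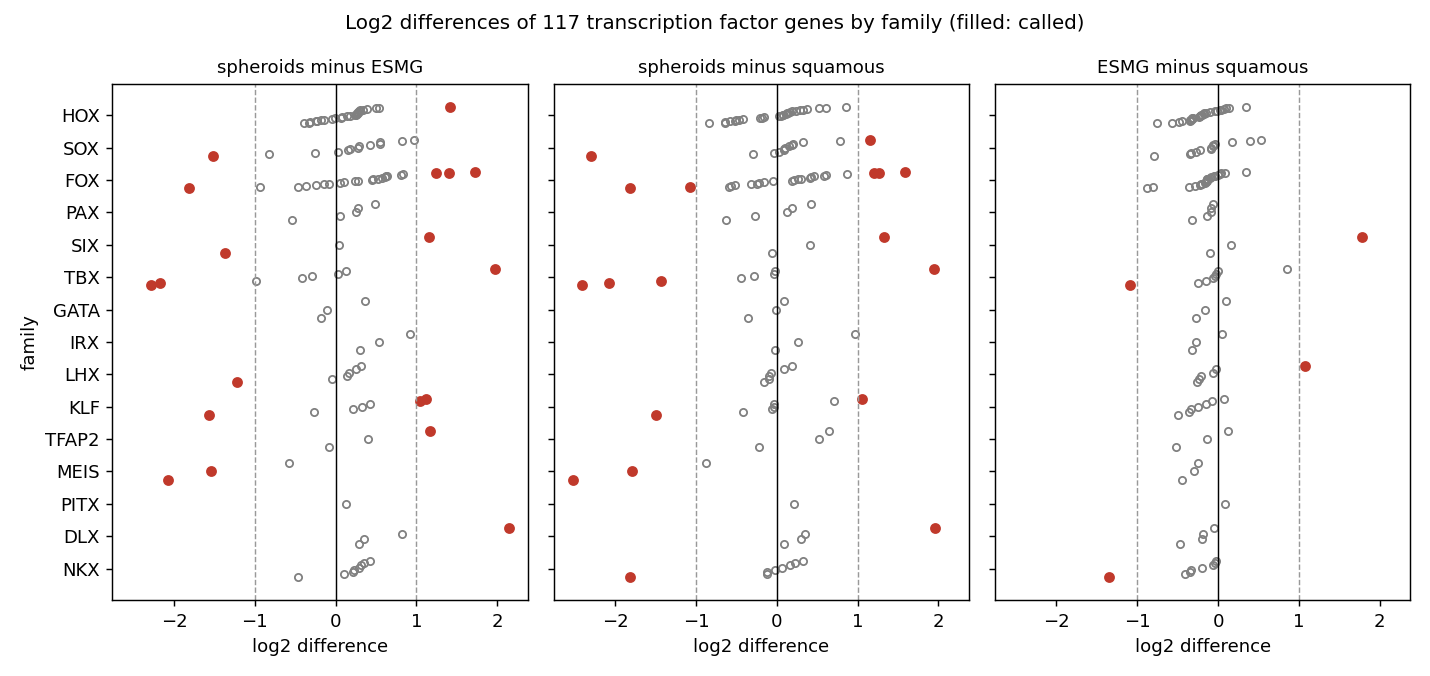
Log2 differences (x axis) of the 117 genes by family (y axis), for spheroids minus ESMG, spheroids minus squamous and ESMG minus squamous. Each point is a gene, filled red where called, and dashed lines mark the 2-fold minimum; 19, 18 and 4 points are filled.

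The comparison of the glands with the lining above them asks which factors mark either tissue. SIX4 and LHX8 were higher in ESMG, and NKX6-1 and TBX5 were lower. SOX5 was not called with the probe set used (0.54, adjusted p = 0.0813), but a dimmer SOX5 probe set met the call (1.28, adjusted p = 0.00573). SIX4 is a homeobox factor of muscle, kidney and sensory organ development. Its levels were 7.25, 7.94 and 7.22 in ESMG of pigs 37, 39 and 40, against 5.58, 5.75 and 5.74 in squamous tissue of the same pigs. The groups did not overlap, and SIX4 was 3.44-fold higher in ESMG (log2 difference 1.78, SE 0.20, limma adjusted p = 0.000418). The squamous levels lay near the floor. Spheroids stood between, at 5.85, 6.09 and 6.37. SIX4 was 2.57-fold lower in spheroids than in ESMG (-1.36, SE 0.20, adjusted p = 0.000254), and its difference from squamous tissue was 0.42 (adjusted p = 0.132). Its neighbour SIX6, a factor of eye development with 2 protein-coding genes between them in the pig reference assembly, differed by -0.10 between ESMG and squamous tissue.

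LHX8 is a LIM-homeodomain factor known from forebrain neurons, teeth and oocytes. It stood at 6.55, 7.55 and 6.85 in ESMG, against 5.93, 6.01 and 5.79 in squamous tissue. All ESMG arrays lay above all squamous arrays, by 2.10-fold (log2 difference 1.07, SE 0.22, adjusted p = 0.0131), and the ESMG array of pig 39 was the highest. Without that array the difference was 0.79 and LHX8 was no longer called. Without the squamous array of pig 40 its adjusted p was 0.0576. In spheroids LHX8 was at 5.86, 5.71 and 5.70, and was 2.33-fold lower than in ESMG (-1.22, SE 0.22, adjusted p = 0.000751). Without the ESMG array of pig 39 that difference was -0.94, under the fold minimum. LHX8 differed by -0.15 from squamous tissue (95% interval -0.62 to 0.32). The LHX8 levels of squamous tissue and spheroids lay not far above the floor. The other 5 LHX genes were called in no comparison.

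NKX6-1 is a homeobox factor of pancreatic beta cells and of the spinal cord. It stood at 6.96, 6.86 and 7.51 in ESMG, against 9.03, 8.25 and 8.12 in squamous tissue. The groups did not overlap, and ESMG stood 2.55-fold below squamous tissue (log2 difference -1.35, SE 0.24, adjusted p = 0.007). It stood at 6.84, 6.63 and 6.48 in spheroids, which was 3.52-fold lower than in squamous tissue (-1.81, SE 0.24, adjusted p = 0.00011) and -0.46 from ESMG (adjusted p = 0.155). Of the 8 NKX genes it alone was called; NKX2-1, the lung and thyroid factor, had differences of -0.04 to 0.11.

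TBX5 is a T-box factor of the heart and the forelimb. It stood at 6.54, 6.07 and 7.29 in ESMG, against 7.71, 7.52 and 7.92 in squamous tissue. The ESMG levels were the more spread, with pig 40 highest, and the groups did not overlap. The log2 difference was -1.09 (SE 0.25, adjusted p = 0.0262), a fold of 2.12. The call was lost when spheroid arrays were left out of the model (adjusted p = 0.0646), with pig as a random replicate block (0.0543), without the ESMG array of pig 37 (0.0911) or 39 (0.0885, log2 difference -0.80) and without the squamous array of pig 37 (0.0723) or 40 (0.101). With pig as a fixed block it was kept. Spheroids had 5.71, 5.52 and 5.70, close to the floor and 4.21-fold below squamous tissue (log2 difference -2.07, SE 0.25, adjusted p = 5.17e-05). Their difference of -0.99 from ESMG (adjusted p = 0.00752) lay just under the fold minimum.

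**Figure D2:**
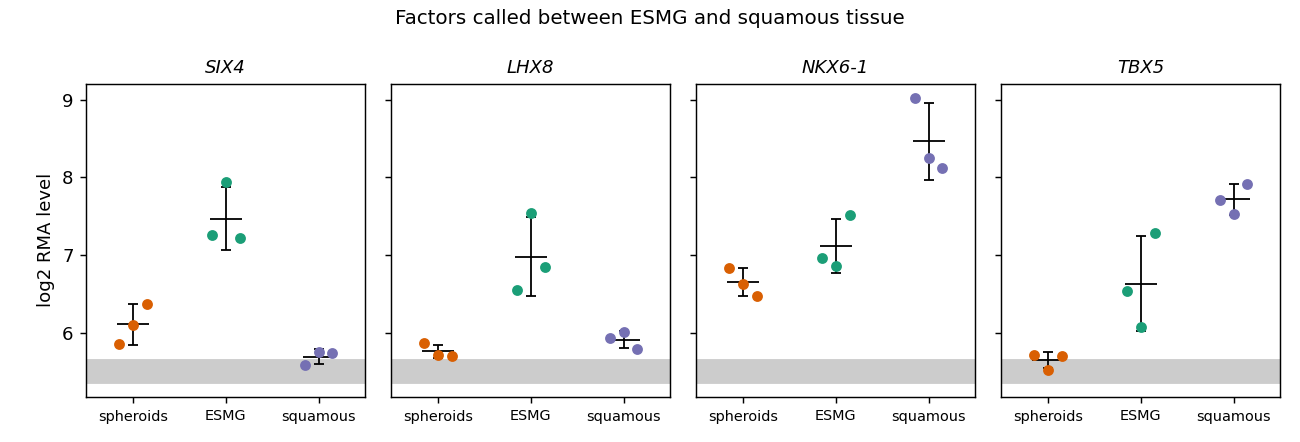
Log2 RMA levels (y axis) of SIX4, LHX8, NKX6-1 and TBX5 on each array of spheroids, ESMG and squamous tissue (x axis). Points are arrays, black lines the mean ± SD of 3, and the grey band spans the lower quartiles of the arrays, 5.36 to 5.65; SIX4 and LHX8 are highest in ESMG, NKX6-1 and TBX5 in squamous tissue.

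Markers of other tissue parts moved between the glands and the lining as well. Of 6 measured smooth muscle markers 2 were lower in ESMG and 0 higher, with a mean level of 10.55 to 11.14 in ESMG and 11.49 to 11.83 in squamous tissue. Of 7 leukocyte markers 1 was higher in ESMG, with a mean level of 7.62 to 9.05 in ESMG and 7.18 to 7.92 in squamous tissue. Of 5 skeletal muscle markers 1 was lower in ESMG and 0 higher, the lower being PYGM (log2 difference -1.82, adjusted p = 0.0278). None of 9 fibroblast or 6 endothelial markers was called. The part of these cells in the differences of SIX4, LHX8, NKX6-1 and TBX5 was not tested. In such bulk samples, fewer cells of a type and less RNA per cell cannot be told apart.

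The factors best known from squamous and foregut epithelium were not called between ESMG and the lining. Of 19 listed 14 were measured and 0 were called, where 3.06% of all genes were, so a list of this size says little by its count. The median log2 difference was -0.31, against -0.06 over all genes. Of the 14 differences 12 were negative (85.7%), as were 80.3% of all 117 factors and 60.9% of all genes. SOX2, which specifies the foregut and persists in esophageal basal cells, stood at 10.73, 10.62 and 11.15 in spheroids, 10.47, 10.35 and 10.02 in ESMG and 10.68, 10.90 and 10.32 in squamous tissue. PAX9, a factor of esophageal differentiation in the mouse, stood at 10.62, 11.05 and 10.57 in spheroids, 11.32, 11.42 and 11.11 in ESMG and 11.51, 11.67 and 10.95 in squamous tissue. KLF5, a factor of proliferating basal epithelium, stood at 12.57, 12.52 and 12.57 in spheroids, 12.03, 12.18 and 12.47 in ESMG and 12.58, 12.72 and 12.47 in squamous tissue. The ESMG and squamous arrays overlapped for SOX2, PAX9 and KLF5. The 95% interval of ESMG minus squamous was -0.78 to 0.08 for SOX2, -0.53 to 0.35 for PAX9 and -0.68 to -0.04 for KLF5 (adjusted p = 0.386, 0.863 and 0.199), all inside 2-fold. That a p missed the threshold does not show equal levels. None of the 4 measured squamous markers was called between these tissues either, with a median log2 difference of -0.46. How much of the level of these factors in ESMG samples came from squamous cells was not tested.

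FOXE1, a forkhead factor of the thyroid and of hair follicles, came closest to a call among them. It stood at 7.34, 7.50 and 7.56 in ESMG, against 8.58, 8.49 and 7.97 in squamous tissue. The groups did not overlap, and the difference was -0.88 (SE 0.18, adjusted p = 0.0137), under the fold minimum. Without the squamous array of pig 40 it reached -1.07 and was called. FOXE1 was named after its value was seen. TFAP2A differed by 0.12 (adjusted p = 0.778), TFAP2C by -0.52 (0.0967) and GATA3, which acts in skin and T cells, by 0.10 (0.849). SOX10, a factor of glia and of salivary gland cells, stood at 7.48, 7.57 and 7.52 in ESMG, against 7.20, 7.34 and 6.82 in squamous tissue, a difference of 0.40 (adjusted p = 0.193).

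In spheroids 1 of the 14 epithelial factors was called higher and 0 lower against ESMG (background 7.99% higher and 8.91% lower), and none was called against squamous tissue (background 16.7%). TFAP2C, AP-2 gamma, a factor of epidermis, trophoblast and mammary epithelium, was the called gene. It stood at 11.54, 11.44 and 11.22 in spheroids, against 9.97, 10.22 and 10.52 in ESMG and 10.62, 10.79 and 10.85 in squamous tissue. The spheroid arrays lay above all tissue arrays. The fold was 2.24 over ESMG (log2 difference 1.16, SE 0.16, adjusted p = 0.000163) and 1.56 over squamous tissue (0.65, SE 0.16, adjusted p = 0.00793), the second under the fold minimum. With the fold minimum dropped, 6 of the 14 were higher than in ESMG and 0 lower (background 23.9% higher and 17.6% lower). Against squamous tissue 3 were higher and 1 lower (background 23.6% and 17.4%).

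SOX2 was 0.55 higher than in ESMG (adjusted p = 0.0418) and 0.20 from squamous tissue (adjusted p = 0.476). SOX15, a SOX factor of skin, differed by 0.83 from ESMG and 0.79 from squamous tissue (adjusted p = 0.0219 and 0.0285). PAX9 differed by -0.63 from squamous tissue (adjusted p = 0.0257) and by -0.54 from ESMG (0.0505). All these differences were under 2-fold. The measured level of the structural squamous markers differed far more: 3 of the 4 were lower in spheroids than in squamous tissue, and the median difference over the 4 was -4.05 on the log2 scale. KRT5, a basal keratin, was the exception, at 13.89, 13.69 and 13.69 in spheroids, against 13.15, 13.33 and 13.39 in squamous tissue (difference 0.46, adjusted p = 0.0622). KRT15, also a basal keratin, was among the 3 lower ones (difference -3.65, adjusted p = 2.06e-05).

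**Figure D3:**
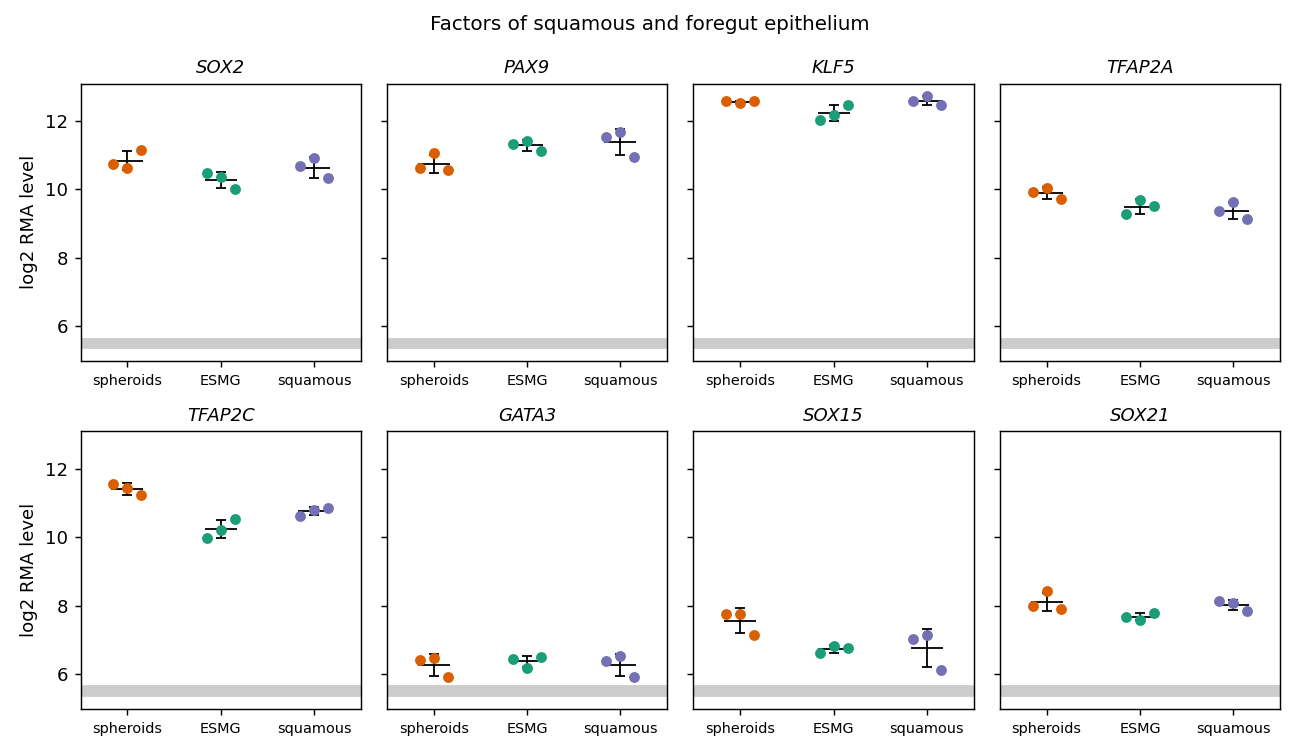
Log2 RMA levels (y axis) of 8 factors of squamous and foregut epithelium on each array of spheroids, ESMG and squamous tissue (x axis). Points are arrays, black lines the mean ± SD of 3, and the grey band spans the lower quartiles of the arrays; the spheroid arrays of TFAP2C, at 11.22 to 11.54, lie above all tissue arrays.

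The comparisons of spheroids with each tissue ask which factors differ between the cultured spheroids and bulk samples of the glands or the lining. A rise or fall means a higher or lower level in spheroids than in the tissue, which also holds other cells. DLX2 and TBX3 rose most. DLX2, a distal-less homeobox factor of the pharyngeal arches and forebrain, stood at 8.18, 8.31 and 7.61 in spheroids, against 5.81, 5.71 and 6.14 in ESMG and 5.85, 6.26 and 6.13 in squamous tissue. Every spheroid array lay above every tissue array, and the tissue levels lay not far above the floor. DLX2 was 4.43-fold higher than in ESMG (log2 difference 2.15, SE 0.20, adjusted p = 8.55e-06) and 3.88-fold higher than in squamous tissue (1.95, SE 0.20, adjusted p = 1.57e-05). Its immediate neighbour DLX1 stood at 5.64, 5.93 and 5.79 in spheroids, against 5.31, 5.37 and 5.82 in ESMG, a difference of 0.29 (adjusted p = 0.249). DLX3, an epidermal member of the family, differed by 0.82 from ESMG (adjusted p = 0.00318).

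TBX3, a T-box factor needed for limb and mammary gland formation, stood at 9.71, 9.91 and 9.55 in spheroids, against 7.74, 7.70 and 7.80 in ESMG and 7.84, 7.73 and 7.77 in squamous tissue. The 6 tissue arrays spanned little, and the spheroids lay far above them. The folds were 3.93 over ESMG (1.98, SE 0.13, adjusted p = 7.16e-07) and 3.84 over squamous tissue (1.94, SE 0.13, adjusted p = 7.71e-07). TBX5, with 1 protein-coding gene between it and TBX3 in the reference assembly, had the opposite sign in both comparisons, at -0.99 and -2.07.

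Factors tied to growth and quiescence moved in both directions. Their list was chosen with earlier results of these data known, so its counts are a description. Of 10 measured, 4 rose and 1 fell against ESMG (background 7.99% higher and 8.91% lower), with a median of 0.91. Against squamous tissue 4 rose and 2 fell (background 8.61% and 8.05%), with a median of 0.79. FOXM1, which switches on genes of mitosis, stood at 8.23, 8.19 and 8.69 in spheroids, against 6.52, 6.58 and 6.83 in ESMG and 6.68, 6.85 and 6.83 in squamous tissue. It was 3.31-fold higher than in ESMG (1.73, SE 0.16, adjusted p = 8.45e-06) and 3.00-fold higher than in squamous tissue (1.58, SE 0.16, adjusted p = 1.44e-05). The tissues overlapped with each other and not with the spheroids. Of 5 measured cell cycle markers 2 were higher in spheroids in either comparison. Their mean level was 9.13 to 9.19 in spheroids, 7.67 to 7.87 in ESMG and 7.85 to 8.25 in squamous tissue.

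FOXK2, a forkhead factor of metabolic genes and autophagy, stood at 10.76, 10.50 and 10.32 in spheroids, against 9.16, 8.96 and 9.27 in ESMG and 9.15, 9.40 and 9.26 in squamous tissue. It was 2.64-fold higher than in ESMG (adjusted p = 2.7e-05) and 2.39-fold higher than in squamous tissue (adjusted p = 5.64e-05). Its relative FOXK1 differed by 0.84 and 0.87 (adjusted p = 0.00128 and 0.00106), under the fold minimum. KLF13, a zinc finger factor of heart and T cells, differed by 1.12 and 1.05 (adjusted p = 0.000749 and 0.00117). KLF10, a gene induced by TGF-beta, differed by 1.04 from ESMG (adjusted p = 0.00966) and by 0.71 from squamous tissue (adjusted p = 0.0602). SOX4, a factor of progenitor cells, stood at 8.97, 9.35 and 9.08 in spheroids, against 8.02, 8.32 and 8.14 in ESMG and 8.15, 7.94 and 7.85 in squamous tissue. SOX4 was above the fold minimum against squamous tissue (1.15, SE 0.15, adjusted p = 0.000102) and just under it against ESMG (0.97, adjusted p = 0.000344). The gap between these 2 differences is the difference of 0.18 between the tissues, which was not called (adjusted p = 0.611). The calls of KLF13, KLF10 and SOX4 rested on differences near the fold minimum and were lost after quantile normalization or cyclic loess and, for each, under other settings given with the processing.

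FOXC2 and SIX2, factors of mesenchymal organs, were higher in spheroids too. FOXC2, known from lymphatic vessels, stood at 8.73, 8.96 and 8.52 in spheroids, against 7.31, 7.43 and 7.74 in ESMG and 7.54, 7.68 and 7.36 in squamous tissue. It was 2.37-fold and 2.31-fold higher than in ESMG and squamous tissue (adjusted p = 0.000111 and 0.000132). SIX2, known from nephron progenitors, stood at 7.99, 8.15 and 7.73 in spheroids, against 6.87, 6.52 and 7.01 in ESMG and 6.59, 7.0 and 6.31 in squamous tissue. It was 2.24-fold and 2.51-fold higher (adjusted p = 0.000681 and 0.000273). For both genes all spheroid arrays lay above all tissue arrays. FOXL1, with 1 protein-coding gene between it and FOXC2, differed by 0.63 and 0.43 (adjusted p = 0.0205 and 0.1).

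The falls in spheroids were led by MEIS and T-box factors. MEIS2, a homeodomain partner of HOX and PBX proteins, stood at 5.83, 5.99 and 5.71 in spheroids, against 7.74, 7.87 and 8.14 in ESMG and 8.18, 8.20 and 8.72 in squamous tissue. It fell 4.22-fold against ESMG (-2.08, SE 0.18, adjusted p = 4.11e-06) and 5.76-fold against squamous tissue (-2.53, SE 0.18, adjusted p = 8.88e-07), to a level near the floor. MEIS1 stood at 8.98, 8.93 and 9.16 in spheroids, against 10.35, 10.80 and 10.54 in ESMG and 10.73, 10.68 and 11.04 in squamous tissue. It fell 2.91-fold and 3.46-fold (adjusted p = 1.74e-05 and 5.06e-06), and remained well above the floor. MEIS3 differed by -0.58 and -0.88 (adjusted p = 0.0395 and 0.00463), so the 3 measured MEIS genes had negative differences past the adjusted p, 2 of them past the fold minimum.

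TBX18, a factor of ureter and sinus node mesenchyme, stood at 5.29, 5.46 and 5.17 in spheroids, against 7.16, 7.63 and 7.66 in ESMG and 7.88, 7.56 and 7.73 in squamous tissue. It fell 4.51-fold against ESMG (-2.17, SE 0.17, adjusted p = 2.01e-06) and 5.33-fold against squamous tissue (-2.41, SE 0.17, adjusted p = 8.42e-07). The spheroid levels lay at about the lower quartile of their arrays, near the floor. TBX15, a factor of skeletal and skin mesenchyme, stood at 4.90, 4.50 and 3.84 in spheroids, against 6.18, 7.24 and 6.69 in ESMG and 5.34, 6.31 and 5.90 in squamous tissue. Spheroids lay below every tissue array and below the lower quartile of their arrays, so both folds rest on values near the floor. TBX15 fell 4.89-fold against ESMG (-2.29, SE 0.33, adjusted p = 0.000182) and 2.71-fold against squamous tissue (-1.44, SE 0.33, adjusted p = 0.00413). Of 8 T-box genes 2 fell and 1 rose against ESMG (background 8.91% lower and 7.99% higher), and 3 fell and 1 rose against squamous tissue (8.05% and 8.61%).

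SOX6, a factor of cartilage and muscle fibre type, stood at 5.34, 5.05 and 5.39 in spheroids, against 5.91, 7.36 and 7.05 in ESMG and 7.34, 7.67 and 7.68 in squamous tissue. The ESMG array of pig 37 was low and stood nearer the spheroids than the other ESMG arrays did. SOX6 fell 2.85-fold against ESMG (-1.51, SE 0.30, adjusted p = 0.00164; -1.94 without that array) and 4.94-fold against squamous tissue (-2.30, SE 0.30, adjusted p = 8.53e-05). The spheroid levels lay near the floor here too. FOXP2, a factor of brain and lung development, stood at 7.96, 8.20 and 7.90 in spheroids, against 9.48, 10.15 and 9.86 in ESMG and 9.53, 9.90 and 10.08 in squamous tissue. It fell 3.50-fold and 3.52-fold (adjusted p = 2.42e-05 and 2.18e-05). FOXP2 was called in neither direction between the tissues, where the 95% interval of ESMG minus squamous was -0.44 to 0.42.

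KLF9, a target gene of glucocorticoid and thyroid hormone receptors, stood at 6.83, 7.11 and 6.74 in spheroids, against 8.66, 8.21 and 8.51 in ESMG and 8.57, 8.19 and 8.40 in squamous tissue. It fell 2.96-fold and 2.82-fold (adjusted p = 2.23e-05 and 2.96e-05), with no overlap. FOXO4, which insulin signalling keeps out of the nucleus, differed by -0.93 from ESMG (adjusted p = 0.000331) and by -1.07 from squamous tissue (adjusted p = 0.00012). Its relatives FOXO1 and FOXO3 differed from ESMG by 0.81 (adjusted p = 0.00107) and -0.36 (0.0674), so the FOXO genes did not share a sign.

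**Figure D4:**
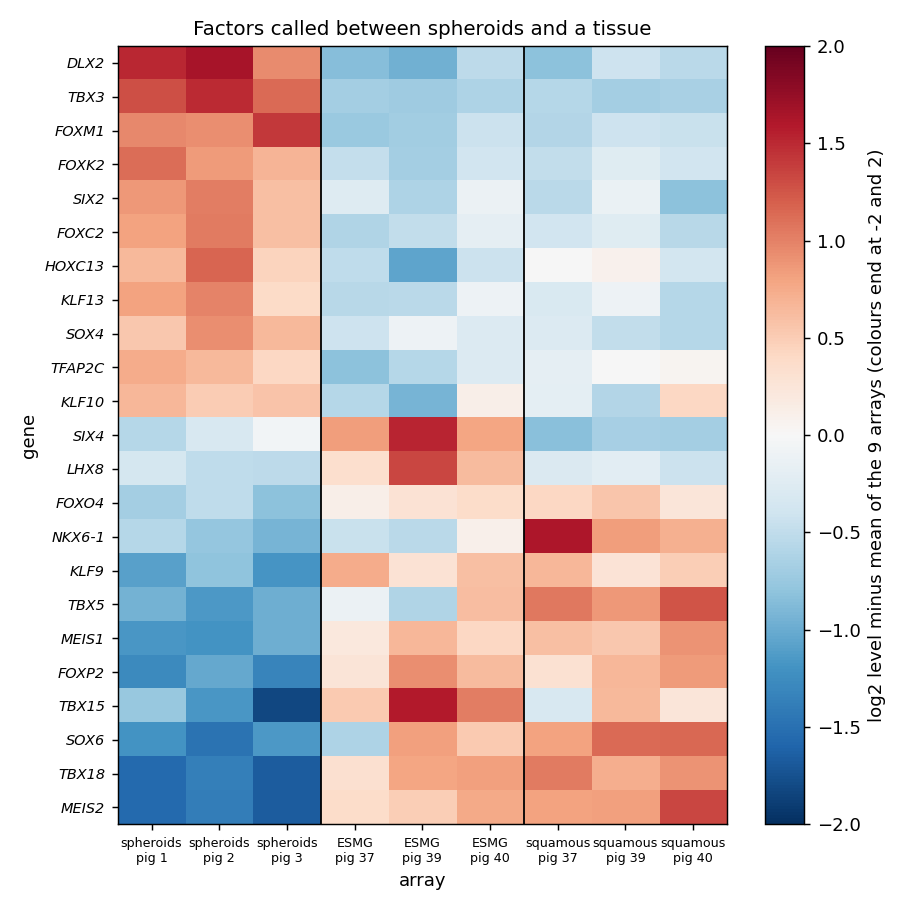
Genes called between spheroids and at least 1 tissue (rows), shown per array (columns) as the log2 level minus the gene's mean over 9 arrays. Red is higher and blue lower; DLX2 to KLF10 are highest in spheroids, MEIS2, TBX18 and SOX6 lowest there, and SIX4 and LHX8 are highest in ESMG.

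The list of factors for mesenchyme and muscle was chosen with earlier results of these data known, so its counts are a description. Among 18 measured factors listed for mesenchyme and muscle, 7 fell and 3 rose in spheroids against ESMG, with a median of -0.31 (background 8.91% lower and 7.99% higher). The 7 were MEIS1, MEIS2, TBX15, TBX18, FOXP2, KLF9 and SIX4, and against squamous tissue TBX5 took the place of SIX4. Against squamous tissue 7 fell and 3 rose as well, with a median of -0.32 (background 8.05% lower and 8.61% higher). Markers of the cells that make up mesenchyme moved with them. All 9 measured fibroblast markers fell in both comparisons, with a mean level of 6.89 to 7.69 in spheroids, 11.36 to 11.69 in ESMG and 11.30 to 11.65 in squamous tissue. All 6 smooth muscle markers fell too, with a mean level of 6.81 to 7.18 in spheroids, 10.55 to 11.14 in ESMG and 11.49 to 11.83 in squamous tissue. Of 6 endothelial markers 5 fell, and of 7 leukocyte markers 4 fell against ESMG and 3 fell and 2 rose against squamous tissue. Of 5 skeletal muscle markers 1 fell against ESMG and 2 against squamous tissue, and of 3 nerve and glia markers 1 rose and 1 fell in either comparison. The part of these cells in the falls of MEIS1, MEIS2, TBX15, TBX18, TBX5, SOX6, FOXP2, KLF9 and SIX4 was not tested. FOXC2, SIX2 and TBX3 are on the same mesenchymal list and had the opposite direction. Of 11 measured vessel and blood factors 1, FOXC2, was higher in either comparison (9.09%, against 7.99% and 8.61% of all genes) and 0 were lower.

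Factors listed for exocrine gland and airway, or for intestine, liver and pancreas, were called at most once per list and comparison. Of 7 measured factors of exocrine gland and airway, SIX4 was higher in ESMG than in squamous tissue and lower in spheroids than in ESMG. SIX4 is also on the mesenchymal list above, so its calls count in both lists. SOX4 was higher in spheroids than in squamous tissue. SOX10 differed by -0.25 between spheroids and ESMG (adjusted p = 0.235). Of 6 measured factors of intestine, liver and pancreas, NKX6-1 was called in ESMG and in spheroids versus squamous tissue, and none was called in spheroids versus ESMG. A single call is 14.3% of the first list and 16.7% of the second, against 3.06% of all genes in ESMG versus squamous tissue, 16.9% in spheroids versus ESMG and 16.7% in spheroids versus squamous tissue.

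Among the 27 HOX genes nearly every difference was under 2-fold. None was called in ESMG versus squamous tissue (background 3.06%), 1 (3.70%) in spheroids versus ESMG (16.9%) and none in spheroids versus squamous tissue (16.7%). In ESMG versus squamous tissue the HOX differences lay between -0.76 and 0.34, and 0 had an adjusted p under 0.05 (background 6.05%). Of the 27, 21 were negative (77.8%), as were 80.3% of all 117 factors and 60.9% of all genes. The called gene was HOXC13, a factor of hair and nail. It stood at 7.22, 7.73 and 7.01 in spheroids, against 6.05, 5.51 and 6.14 in ESMG and 6.56, 6.65 and 6.19 in squamous tissue. Spheroids lay above all tissue arrays, by 2.67-fold over ESMG (log2 difference 1.42, SE 0.22, adjusted p = 0.000348) and by 0.85 on the log2 scale over squamous tissue (adjusted p = 0.0092). A second, dimmer HOXC13 probe set gave a difference of 0.47 from ESMG (adjusted p = 0.0236), so the size of the HOXC13 difference depends on the probe set. Its immediate neighbour HOXC12 differed by 0.28 from ESMG. HOXB7 was the other HOX gene with an adjusted p under 0.05 there, at a difference of 0.50 (adjusted p = 0.0224), so 2 of 27 (7.41%) passed, against 41.5% of all genes.

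Below the fold minimum, spheroids and squamous tissue differed at an adjusted p under 0.05 in 10 of 27 HOX genes (37.0%, against 40.9% of all genes), 4 higher and 6 lower in spheroids. That share is near the background and does not set the HOX genes apart, and the values are given cluster by cluster as a description. In the HOXA cluster the anterior genes were lower: the differences were -0.83 for HOXA2 (adjusted p = 0.00614), -0.58 for HOXA4 (0.0242), -0.52 for HOXA5 (0.0205) and -0.50 for HOXA7 (0.0358). HOXA3 differed by -0.16, and HOXA9, HOXA11 and HOXA13 by 0.33, 0.24 and 0.19. HOXA2 stood at 6.68, 6.46 and 6.81 in spheroids, against 7.32, 7.58 and 7.55 in squamous tissue, with no overlap.

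In the HOXB cluster HOXB2 and HOXB3 had the opposite sign. HOXB3 stood at 7.52, 8.19 and 7.57 in spheroids, against 7.15, 7.26 and 7.03 in squamous tissue, a difference of 0.61 (adjusted p = 0.0185). HOXB2 stood at 7.42, 7.73 and 7.14 in spheroids, against 6.90, 7.07 and 6.73 in squamous tissue, a difference of 0.53 (adjusted p = 0.0231). Neither gene overlapped between the groups. The other 6 HOXB genes differed by -0.21 to 0.16. In the HOXD cluster HOXD3 and HOXD8 differed by -0.42 and -0.64 (adjusted p = 0.0251 and 0.0285) and HOXD13 by 0.37 (adjusted p = 0.0391). HOXD10 differed by -0.18 (adjusted p = 0.442), but a second HOXD10 probe set gave -0.55 (adjusted p = 0.0162). That second probe set was dimmer in the mean over the 9 arrays, though brighter in squamous tissue (6.40 against 6.27). In the HOXC cluster HOXC4 and HOXC5 differed by -0.64 and -0.46, with an adjusted p of 0.0665 for HOXC4. Paralog group went with brightness: 14 of 17 genes of groups 1 to 8 lay above the lower quartile on all arrays, against 2 of 10 of groups 9 to 13, of which 3 lay below it on all. A difference in these dim posterior genes would be compressed.

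**Figure D5:**
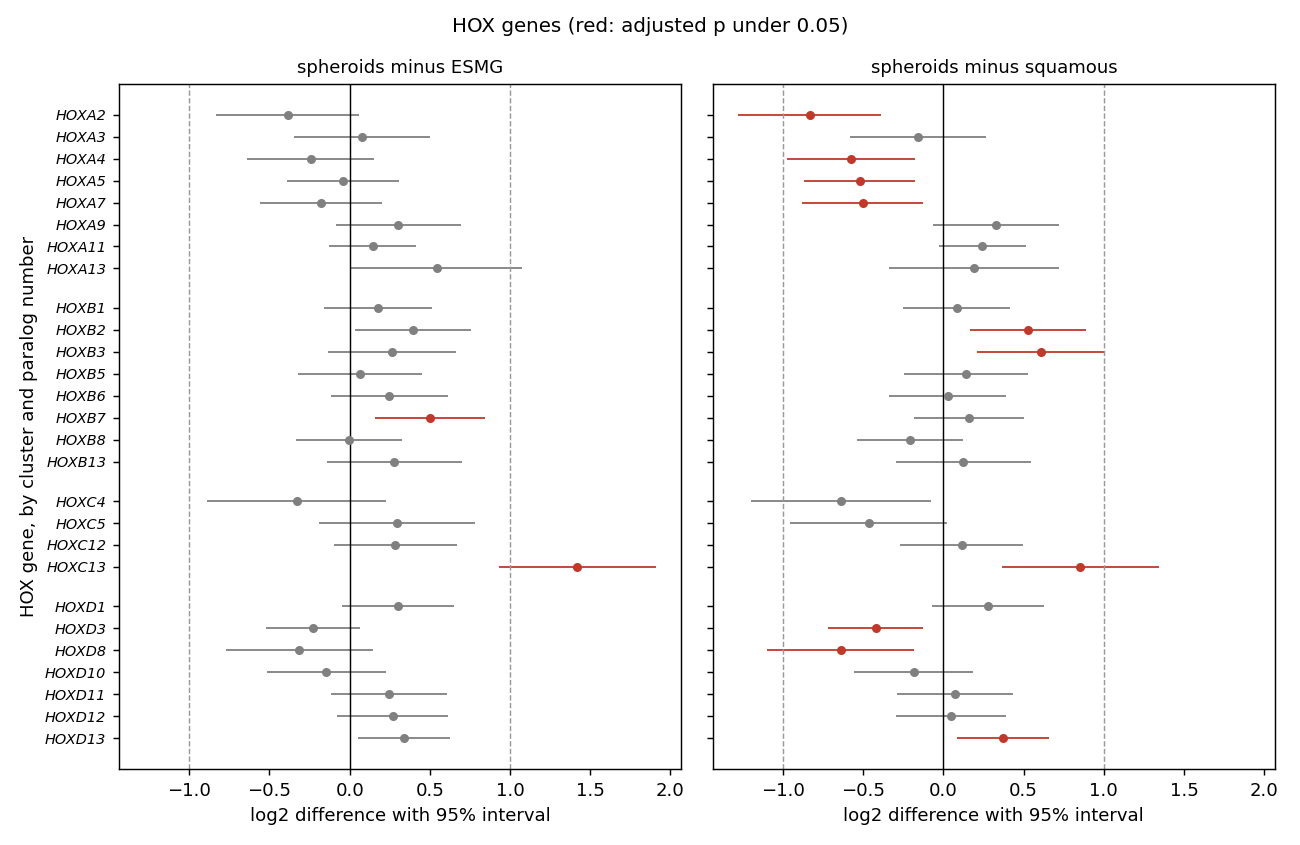
Log2 differences with 95% intervals (x axis) of the 27 HOX genes by cluster and paralog number (y axis), for spheroids minus ESMG on the left and spheroids minus squamous on the right. Red marks an adjusted p under 0.05 and dashed lines the 2-fold minimum, which HOXC13 alone passes, at 1.42 in spheroids minus ESMG.

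Partners of these factors were read from a separate list of 58 cofactors and regulators, of which 32 were measured. None was called in ESMG versus squamous tissue. In spheroids 3 rose and 5 fell against ESMG (25%, against 16.9% of all genes), and 4 rose and 6 fell against squamous tissue (31.2%, against 16.7%). This list too was chosen with earlier results of these data known, so its counts are a description. PBX4, a partner of HOX and MEIS proteins, stood at 9.09, 9.12 and 9.30 in spheroids, against 6.61, 6.75 and 6.91 in ESMG and 6.87, 6.96 and 6.91 in squamous tissue. It rose by 2.42 over ESMG (SE 0.13, adjusted p = 1.73e-07) and by 2.26 over squamous tissue (adjusted p = 2.64e-07) on the log2 scale, opposite in sign to MEIS1 and MEIS2. PBX2 differed by 0.88 and 0.80 (adjusted p = 0.00144 and 0.00288) and PBX3 by 0.59 and 0.22 (0.0158 and 0.346), all under the fold minimum. EYA1, a coactivator of SIX2 and SIX4 proteins, stood at 5.70, 5.51 and 4.87 in spheroids, against 7.20, 7.70 and 7.56 in ESMG and 7.23, 6.85 and 7.35 in squamous tissue. It fell by 2.13 and 1.79 on the log2 scale (adjusted p = 2.06e-05 and 7.1e-05), to levels near the floor. EYA2 rose by 1.10 over ESMG (adjusted p = 0.000625) and differed by 0.67 from squamous tissue. DACH1, a corepressor in the same network, fell by 1.55 against ESMG (adjusted p = 0.000364).

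Among LIM-domain cofactors LMO3 fell by 1.96 against ESMG and by 3.12 against squamous tissue (adjusted p = 0.00207 and 8.07e-05). Its spheroid levels of 4.72, 5.27 and 4.70 lay below the lower quartile of their arrays, so both differences rest on values near the floor. LMO2 rose by 1.22 over squamous tissue. EZH1, a histone methyltransferase of Polycomb complex PRC2, fell by 1.16 and 1.24, and CITED2, a coactivator of TFAP2 factors, by 1.07 and 1.41. CITED4 had the opposite sign to CITED2, at 0.67 and 0.84 (adjusted p = 0.00518 and 0.00134), under the fold minimum. CTBP2 rose by 1.06 over ESMG and by 1.44 over squamous tissue. Called against squamous tissue alone were also WDR5 (1.04), SSBP2 (-1.24) and ZFPM2 (-1.35).

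The remaining families gave no call or few. The 5 PAX, 3 GATA, 3 IRX genes and PITX3 were called in no comparison. IRX3 differed in spheroids by 0.92 from ESMG and 0.97 from squamous tissue (adjusted p = 0.00284 and 0.00204), just under the fold minimum. It was called under some other settings, as without the array of spheroid pig 3 (1.11 and 1.17). The 94 genes called nowhere had differences of -0.88 to 0.54 in ESMG versus squamous tissue, -0.83 to 0.92 in spheroids versus ESMG and -0.88 to 0.97 in spheroids versus squamous tissue. The median standard error of a difference over the factors was 0.17.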

How the data were processed

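RNA of 9 pig esophagus samples was hybridised to Affymetrix porcine gene arrays, 3 arrays per group. The deposited values are log2 RMA signals per probe set, made by the authors in Affymetrix Expression Console, per the labels; scanner files were not used here. Of 27558 probe sets 13157 carried 1 gene symbol and 523 several; 7 symbols were updated through the RefSeq table of Sscrofa11.1, used only for names and gene order. The brightest probe set per symbol gave 12217 genes, with no filter on dim ones. All were fitted in limma 3.58.1 (R 4.3.3) with a mean per group over 9 arrays (6 residual degrees of freedom), and p-values were adjusted by Benjamini-Hochberg. Named genes were a list of key factors, all calls of ESMG versus squamous, the 8 largest rises and falls per comparison without overlap, and all HOX genes; family members beside them are named with their values. The members and lists were chosen with earlier results of these data known. ESMG and squamous samples of a pig come from the same animal, per the labels; their deviations from the group means correlated at 0.42, -0.15 and -0.17 in pigs 37, 39 and 40. P-values measure the spread between these samples, and the small number of arrays limits precision. The fit was tested on simulated data.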

Additional observations from a re-analysis of the deposited data

How the results depend on the processing

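No named gene reversed a called direction under the other normalizations, probe set, filter, weight, trend, block or left-out array settings. Between ESMG and squamous tissue 2 genes were called with the dimmest 33.3% of genes left out, where SIX4 and LHX8 were not tested, and 2 to 4 with an array left out; array weights gave 6. Without a fold minimum 40 genes were called between spheroids and ESMG and 41 between spheroids and squamous tissue, and over all genes 739 in ESMG versus squamous tissue, 5069 in spheroids versus ESMG and 5002 in spheroids versus squamous tissue. With an array left out the counts were 19 to 22 and 17 to 19. Over all genes ESMG versus squamous tissue gave 276 to 569 calls, 569 without the ESMG array of pig 40. Cyclic loess gave 8 higher and 11 lower among the factors in spheroids versus ESMG (698 and 1320 of all genes) and 810 and 1137 of all genes in spheroids versus squamous tissue. With pig as a random replicate block TBX5 lost its call (adjusted p = 0.0543); the block changed no other call of a named factor. The calls of KLF13 were lost under quantile normalization (log2 difference 0.98 from ESMG, 0.86 from squamous tissue) and cyclic loess, as were that of KLF10 over ESMG (0.91 and 0.88) and that of SOX4 over squamous tissue (0.98 and 0.93). KLF10 also lost it without the ESMG array of pig 37 or 39 (0.99 and 0.81), KLF13 without spheroid pig 2 (0.99 and 0.92) and, over squamous tissue, without squamous pig 40 (0.93), and SOX4 with array weights (0.92). TBX15 versus squamous tissue was lost with array weights (-0.71), and FOXO4 without spheroid pig 3 or squamous pig 39 (-0.99). A dimmer SOX5 probe set gave 1.28 in ESMG versus squamous tissue and -1.93 in spheroids versus ESMG, where the brighter gave 0.54 and -0.83. The dimmer met the call in both (adjusted p = 0.00573 and 3.78e-05). Its mean level was 4.91 in squamous tissue and 4.26 in spheroids, near the floor. The causes were not tested.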

Other observations

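Some of these genes lie side by side in the pig reference assembly, and 32 pairs were found with at most 3 protein-coding genes between them, 22 of them HOX pairs. Among the other 10, PAX9, NKX2-8 and NKX2-1 are immediate neighbours, and none of the 3 was called in any comparison. DLX3 and DLX4 are neighbours as well and neither was called, whereas DLX2 was called beside DLX1, which was not. Whether neighbours differed from each other was not tested.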
